A study of Homo sapiens with 60 samples.

Results

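Amino acid transporters of the plasma membrane were followed here as 7 genes, SLC38A2, SLC38A1, SLC1A5, SLC1A4, SLC7A1, SLC7A11 and SLC43A1. They were taken by symbol from a gene count table of 29744 genes, leaving aside the subunits of the transporter LAT1. All 7 were in the table, and all 7 were among the 11298 genes that passed the filter on low counts. The samples were spheroids of HCT116, an established human colorectal carcinoma line, exposed from day 1 to day 8 after seeding to 1 µM butyrate, 0.1 µM hemin, 1 µM kynurenine, 1 µM kynurenic acid or hemin together with kynurenine, or left untreated. The titles of the combination read Hem + Kyn 1 µM and give no separate dose of hemin, which is taken here as 0.1 µM. All spheroids grew in agarose microwells in high-glucose DMEM with GlutaMax, 10% fetal bovine serum, antibiotics and non-essential amino acids. Each of these 6 treatments was sampled in 2 conditions that the sample titles call Medium 2 and Medium 1, with 5 libraries in each of the 12 groups and 60 libraries in all. According to the study design, RNA was taken either directly or after 3 h in a nutrient-deprived medium. The titles do not say which of the media was the deprived one, so the labels Medium 2 and Medium 1 are kept.

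Animal cells import amino acids through families of solute carriers that differ in substrates and in how transport is driven. SLC38A2 (SNAT2) and SLC38A1 (SNAT1) use the sodium gradient to accumulate glutamine, alanine and other small neutral amino acids. SLC1A5 (ASCT2) and SLC1A4 (ASCT1) are obligate exchangers of neutral amino acids. ASCT2 carries glutamine, and ASCT1 prefers alanine, serine, cysteine and threonine. SLC7A1 (CAT1) admits arginine, lysine and ornithine, SLC7A11 (xCT) pairs with SLC3A2 to exchange extracellular cystine for glutamate, and SLC43A1 (LAT3) lets large neutral amino acids such as leucine pass by facilitated diffusion. When amino acids run short, the kinase GCN2 raises translation of the transcription factor ATF4, which activates many transporter genes through a C/EBP-ATF composite element. SLC7A11 is also a known target of NFE2L2 (NRF2), which binds the antioxidant response element.

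Libraries were made from the 3' ends of transcripts with unique molecular identifiers, so a count stood for about 1 molecule and did not grow with transcript length. Levels of different genes are therefore set beside each other below as CPM, counts brought to a common library size after TMM scaling. Totals lay between 1346147 and 3083249 counts per library, with a median of 1901981. Epithelial markers were present in every library for EPCAM (286 to 456 CPM), KRT8, KRT18, KRT19 and CDH1, while VIL1 was at 0 in all 60. Of 8 markers of other cell types in the table, COL1A2 and CD3E were at 0 in all 60 libraries and DCN was at 0 in 59. PECAM1 was at 0 in 57 libraries, PTPRC in 48 and VWF in 46. CD68 was at 0 in only 9 (median 1.07 CPM, highest 3.48) and COL1A1 in 1. The summed level of the 8 markers was 1.96 to 10.5 CPM in Medium 2 and 6.11 to 18 CPM in Medium 1, most of it COL1A1. Its part in the results between media was not tested. The library in well A7 (kynurenine, Medium 2) and the one in well B2 (butyrate, Medium 1) lay farthest from their own groups, with root mean square distances of 0.614 and 0.509 on the log2 scale over all tested genes.

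Promoter sequence was read for the members because several of these genes are known targets of ATF4. RefSeq windows of GRCh38.p14 from 250 bases before to 50 bases after an annotated start matched 6 of the 7 members and gave 11 windows. SLC7A11 is named only. The composite element was searched as TGATGNAA and the antioxidant response element as TGACNNNGC, both on either strand, where N is any base. TGATGNAA occurred in 4 of the 11 windows, against 3.62% of 35116 human promoter windows of the same length. TGACNNNGC occurred in 2 of the 11, against 13.3% of those windows. A match describes the letters in the window and is not a site of binding.

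The stretches printed are the 4 windows with TGATGNAA and that of SLC38A2, the most abundant member, each from 250 bases before the start to 30 bases after it, 5' to 3' on the strand of the gene. Capitals mark the motifs. For SLC7A1 the stretch is chr13:29595659-29595938, minus strand, with TGACGCGGC at position -85 and TGATGAAA at position 8, where position 1 is the first transcribed base. For SLC38A1 it is chr12:46266487-46266766, minus strand, before a start inside the annotated span of the gene, with TGATGAAA at position -4. For SLC1A5 it is chr19:46784785-46785064, minus strand, also before a start inside the gene, with TGATGCAA at position -97. For SLC1A4 it is chr2:64989149-64989428, plus strand, again before a start inside the gene, with the motif on the opposite strand as TTGCATCA at position -7. For SLC38A2 it is chr12:46372744-46373023, minus strand, and holds neither motif. The amino acid response element known for this gene lies in its first intron, outside the window.
SLC7A1: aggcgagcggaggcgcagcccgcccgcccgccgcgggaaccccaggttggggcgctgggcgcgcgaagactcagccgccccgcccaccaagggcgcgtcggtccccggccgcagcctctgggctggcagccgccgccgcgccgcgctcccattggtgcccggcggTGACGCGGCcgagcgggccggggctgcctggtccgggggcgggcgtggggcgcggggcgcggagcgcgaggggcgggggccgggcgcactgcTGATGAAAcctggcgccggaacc
SLC38A1: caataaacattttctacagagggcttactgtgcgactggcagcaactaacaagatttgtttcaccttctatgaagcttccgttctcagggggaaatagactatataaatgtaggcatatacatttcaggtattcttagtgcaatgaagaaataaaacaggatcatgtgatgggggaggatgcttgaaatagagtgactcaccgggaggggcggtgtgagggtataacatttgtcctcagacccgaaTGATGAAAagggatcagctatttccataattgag
SLC1A5: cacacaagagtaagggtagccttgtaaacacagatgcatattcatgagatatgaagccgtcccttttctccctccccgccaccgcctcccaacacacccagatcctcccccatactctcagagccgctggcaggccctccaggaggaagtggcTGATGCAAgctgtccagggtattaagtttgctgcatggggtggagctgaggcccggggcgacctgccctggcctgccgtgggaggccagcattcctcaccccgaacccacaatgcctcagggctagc
SLC1A4: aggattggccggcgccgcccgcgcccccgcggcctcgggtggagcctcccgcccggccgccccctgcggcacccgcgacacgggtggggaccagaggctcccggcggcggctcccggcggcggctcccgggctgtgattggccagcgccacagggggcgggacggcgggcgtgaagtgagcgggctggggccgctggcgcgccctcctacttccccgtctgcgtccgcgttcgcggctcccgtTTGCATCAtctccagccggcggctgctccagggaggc
SLC38A2: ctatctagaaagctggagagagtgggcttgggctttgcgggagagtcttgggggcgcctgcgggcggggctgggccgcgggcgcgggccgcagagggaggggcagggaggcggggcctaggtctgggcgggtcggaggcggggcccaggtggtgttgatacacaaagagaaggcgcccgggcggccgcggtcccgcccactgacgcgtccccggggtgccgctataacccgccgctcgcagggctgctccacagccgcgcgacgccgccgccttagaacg

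The members spanned a wide range of levels, and the order was much the same in both media. SLC38A2 was the most abundant in every library, with a median of 998 CPM over the 60 libraries (754 to 1332). It made up 59 to 65.5% of the summed CPM of the 7 members, as group means. SLC38A1, also on chromosome 12, followed at a median of 322 CPM (166 to 448), below SLC38A2 in 60 of 60 libraries and above SLC7A11 in 60 of 60. SLC7A11 had a median of 108 CPM (53.3 to 185), and it exceeded SLC1A5 in 51 libraries and SLC7A1 in 50. SLC7A1, at 84.2 CPM, and SLC1A5, at 79.8 CPM, could not be ordered across the series. SLC7A1 was the higher of this pair in 22 of 30 Medium 2 libraries and in 15 of 30 Medium 1 libraries. SLC1A4 and SLC43A1 were rare, with medians of 5.07 and 2.67 CPM, which corresponded to median counts of 10 and 5 per library, and SLC43A1 had no count in 5 libraries. Statements on these rare members rest on few molecules.

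**Figure D1:**
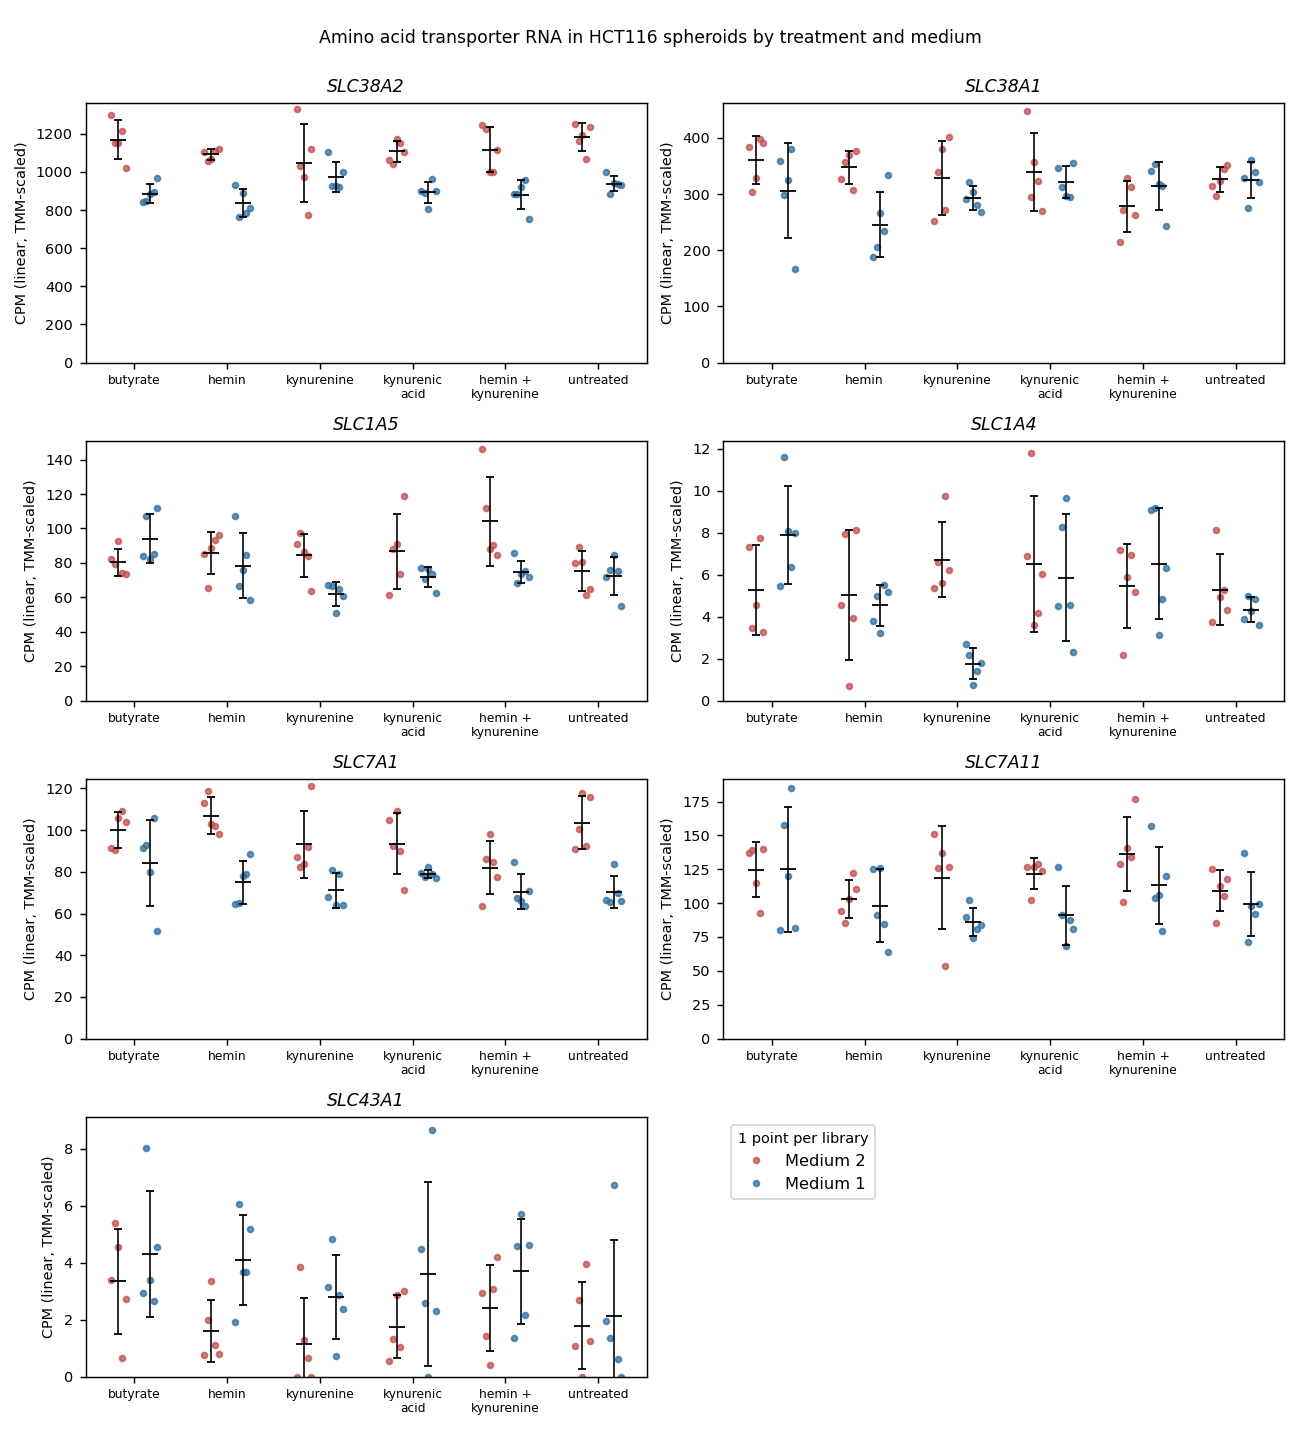
TMM-scaled CPM (linear axis from 0) of each transporter in every library, by treatment, with Medium 2 to the left of Medium 1. Points are libraries, and black marks are means with SD (n = 5), cut off at 0 where the SD passes it. All Medium 2 libraries of SLC38A2 lie above all its Medium 1 libraries in every treatment but kynurenine, whereas the libraries of SLC43A1 overlap throughout.

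Between media, averaged over the 6 treatments with equal weight, 4 of the 7 transporters were higher in Medium 2 and 1 was lower. SLC38A2, SLC7A1, SLC1A5 and SLC7A11 rose, SLC43A1 fell, and SLC38A1 and SLC1A4 did not pass the test. Over all tested genes 22.8% were called higher and 23.3% lower in this comparison, 46.1% in either direction, so calls were common among genes in general. The median log2 fold change of the members was 0.23, against 0 for all genes tested. The test was edgeR's quasi-likelihood F-test, with p-values adjusted by Benjamini-Hochberg over the 11298 genes and a call at an adjusted p below 0.05.

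The change was most precise for SLC38A2, the sodium-coupled glutamine and alanine carrier. Its group means lay between 1046 and 1182 CPM in Medium 2 and between 836 and 975 CPM in Medium 1, so the ranges of the group means did not overlap. The fitted difference was 0.31 on the log2 scale (SE 0.04), a 1.24-fold level with a 95% interval of 1.18 to 1.30, and edgeR's adjusted p was 1.27e-10. Of 30 Medium 2 libraries, 29 lay above the Medium 1 median. SLC7A1, the cationic amino acid transporter, had a slightly larger difference of 0.36 (SE 0.05, 1.29-fold, edgeR adjusted p = 1.14e-07), with 27 of 30 Medium 2 libraries above the Medium 1 median. Its group means were 82 to 107 CPM in Medium 2 and 70.3 to 84.4 CPM in Medium 1. 

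Smaller differences were called for the neutral amino acid exchanger SLC1A5 and the cystine transporter SLC7A11. SLC1A5 averaged 86.1 CPM in Medium 2 and 75.6 CPM in Medium 1, a difference of 0.19 (SE 0.06, 1.14-fold, edgeR adjusted p = 0.00895), and 23 of 30 Medium 2 libraries were above the Medium 1 median. SLC7A11 averaged 119 CPM in Medium 2 and 102 CPM in Medium 1, a difference of 0.23 (SE 0.08, 1.17-fold, edgeR adjusted p = 0.0207), with 27 of 30 libraries above that median. For both genes single libraries of the media overlapped widely, and the averages were not shared evenly by the treatments. The difference of SLC1A5 ran from -0.23 after butyrate to 0.47 after the combination, with 0.06 in untreated spheroids. That of SLC7A11 ran from 0.01 after butyrate to 0.47 after kynurenine, with 0.13 in untreated spheroids. SLC38A1 averaged 330.1 CPM in Medium 2 and 301 CPM in Medium 1, and its difference of 0.14 (95% interval 0.02 to 0.25) had an edgeR adjusted p of 0.0554. SLC1A4 averaged 5.71 CPM in Medium 2 and 5.15 CPM in Medium 1, with a difference of 0.26 (95% interval -0.05 to 0.56, edgeR adjusted p = 0.169).

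SLC43A1, the facilitated leucine carrier, was the member that fell. It averaged 2.01 CPM in Medium 2 and 3.44 CPM in Medium 1, a log2 difference of -0.80 (SE 0.28, 0.575-fold with a 95% interval of 0.393 to 0.843, edgeR adjusted p = 0.0141), and 8 of 30 Medium 2 libraries were above the Medium 1 median. The call rested on counts of 0 to 19 per library. Without the untreated Medium 1 library in well C1, which held 11 of its counts, the difference was -0.63 with an adjusted p of 0.0587.

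The call for SLC1A5 and that for SLC7A11 depended on how libraries were scaled. When libraries were scaled by total counts alone, the median of all genes moved by -0.12 between media, and the differences became 0.07 for SLC1A5 (edgeR adjusted p = 0.322) and 0.11 for SLC7A11 (0.283). Relative to that median, which largely undoes the change of scaling, the differences were 0.19 for SLC1A5, 0.23 for SLC7A11, 0.32 for SLC38A2, 0.37 for SLC7A1 and -0.79 for SLC43A1. Per the column names, the Medium 1 libraries filled plate wells A1 to F4 and the Medium 2 libraries wells G4 to D8, so medium and region of the plate cannot be told apart. The libraries of each treatment group also filled consecutive wells, so exposure is tied to position on the plate as well. In bulk RNA, fewer cells of a kind and less RNA per cell cannot be told apart either.

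**Figure D2:**
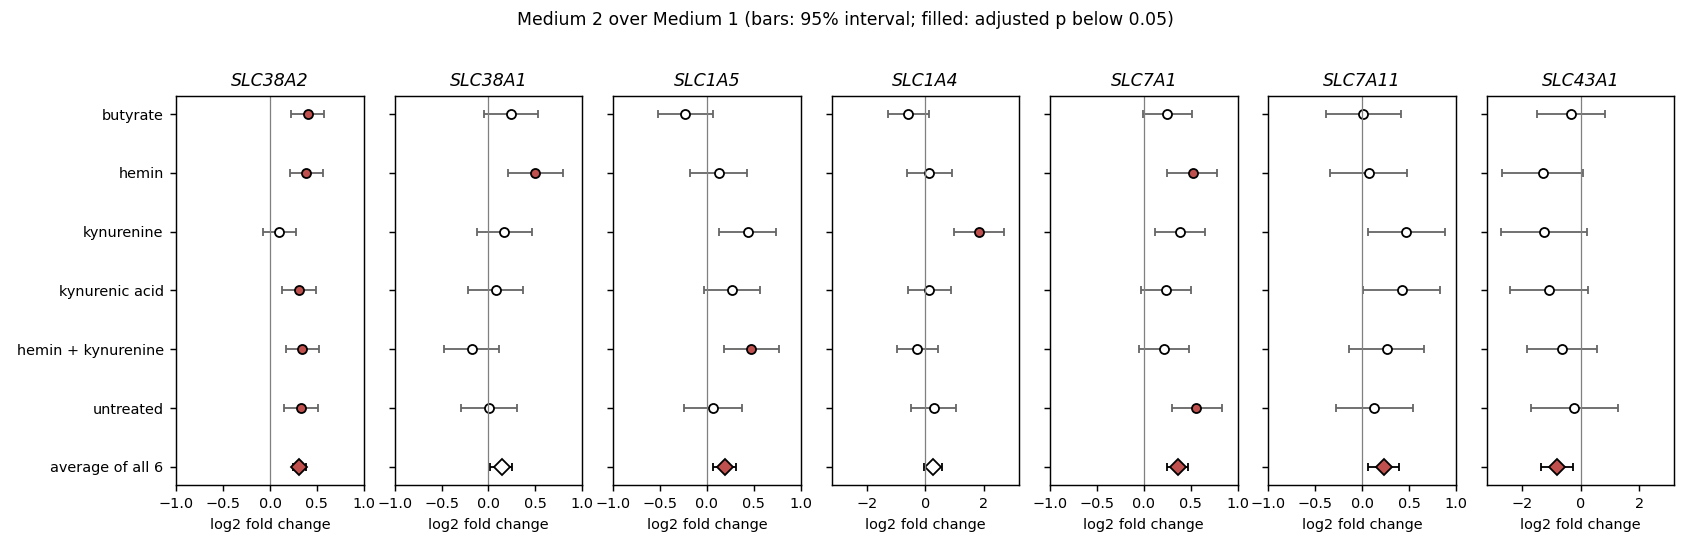
Log2 fold change of Medium 2 over Medium 1 for each transporter, within each treatment (circles) and averaged over the 6 treatments (diamonds), with 95% intervals from the edgeR model. Filled symbols have an adjusted p below 0.05, and SLC1A4 and SLC43A1 have a wider axis. SLC38A2 is filled in every treatment except kynurenine, at 0.31 to 0.40.

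Within single treatments, 10 of the 42 comparisons of a member between media were called, and all 10 were higher in Medium 2. SLC38A2 accounted for calls in 5 treatments and SLC7A1 in 2, and SLC38A1, SLC1A4 and SLC1A5 had 1 each. SLC7A11 and SLC43A1 passed in none. The share of all tested genes called higher was 4.51% for butyrate, 12.6% for hemin, 3.73% for kynurenine, 4.3% for kynurenic acid, 8.02% for the combination and 2.69% for untreated spheroids. Medium 2 libraries that all lay above all Medium 1 libraries were found for 3.85% of genes with butyrate, 6.88% with hemin, 2.32% with kynurenine, 4.57% with kynurenic acid, 5.87% with the combination and 3.99% without treatment.

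In untreated spheroids SLC38A2 had 1254, 1161, 1192, 1067 and 1235 CPM in Medium 2, against 999.8, 885, 940.2, 937 and 934 CPM in Medium 1. All Medium 2 libraries were above all Medium 1 libraries, and the log2 difference was 0.33 (SE 0.09, edgeR adjusted p = 0.0123). After butyrate it had 1301, 1154, 1150.3, 1215 and 1023 CPM in Medium 2, against 841, 845, 882, 897 and 969 CPM in Medium 1. These groups were again separate, with the largest difference for this gene, 0.40 (SE 0.09, edgeR adjusted p = 0.00156). After hemin the Medium 2 libraries stood close together at 1102, 1059, 1068, 1111 and 1120 CPM, against 933, 765, 891, 782 and 810.5 CPM in Medium 1. The difference was 0.38 (SE 0.09, edgeR adjusted p = 0.00109).

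Kynurenic acid left SLC38A2 at 1062, 1040.4, 1175, 1152 and 1107 CPM in Medium 2, against 899.7, 887, 807, 965 and 902 CPM in Medium 1. The combination of hemin and kynurenine gave 1248, 1225, 999.6, 999 and 1114 CPM in Medium 2, against 886, 885, 920, 959 and 754 CPM in Medium 1. Both pairs of groups were separate, with differences of 0.31 (edgeR adjusted p = 0.0176) for kynurenic acid and 0.34 (edgeR adjusted p = 0.0047) for the combination. The call after kynurenic acid was lost without the Medium 1 library in well G3 (adjusted p = 0.0569) and with no filter on low counts (0.0766). Kynurenine alone gave no call, with 1332, 1029, 975, 774 and 1120.2 CPM in Medium 2, against 1102, 925, 927, 922 and 998 CPM in Medium 1. These libraries overlapped, the lowest of them being well A7, and the difference of 0.10 (95% interval -0.07 to 0.28) had an edgeR adjusted p of 0.54. Compared directly with the difference in untreated spheroids it was -0.23 (95% interval -0.48 to 0.02), which was not called. A difference between media particular to kynurenine was therefore not shown. Under total-count scaling the differences for untreated, hemin, kynurenic acid and combination spheroids were 0.18 to 0.23 and none of these 4 passed, with adjusted p-values of 0.0664 to 0.196.

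SLC7A1 was called in untreated and hemin-exposed spheroids. Untreated libraries had 91.1, 100.4, 118, 92.4 and 116 CPM in Medium 2, against 66.3, 65.6, 83.8, 69.6 and 66.2 CPM in Medium 1. The groups did not overlap, and the difference of 0.56 (SE 0.13, 1.48-fold) had an edgeR adjusted p of 0.00392. With hemin the values were 113, 119, 103, 102 and 98 CPM in Medium 2, against 64.4, 64.8, 78, 78.8 and 88.6 CPM in Medium 1. They were separate as well, with a difference of 0.52 (SE 0.13, 1.43-fold, edgeR adjusted p = 0.00308). After kynurenine, where the libraries also stayed apart at 82.2 to 121 CPM in Medium 2 and 63.9 to 81 CPM in Medium 1, the difference of 0.39 had an edgeR adjusted p of 0.0581. In the remaining treatments SLC7A1 differed by 0.22 to 0.25 with overlapping libraries and no call.

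The paralogue SLC38A1 was called after hemin only among the 6 treatments. Its libraries had 327, 358, 369, 307 and 377 CPM in Medium 2, against 188, 206, 266, 235 and 334 CPM in Medium 1. Well G2, the highest of the Medium 1 libraries, overlapped the Medium 2 range, and the difference was 0.50 (SE 0.15, 1.42-fold, edgeR adjusted p = 0.00934). Under total-count scaling it was 0.33 with an adjusted p of 0.0785. The combination of hemin with kynurenine gave -0.18 (95% interval -0.47 to 0.11) for the same gene. The ratio of SLC38A2 to SLC38A1 within a library, which no library scaling moves, was 0.32 higher on the log2 scale in Medium 2 for untreated spheroids (exact two-sided permutation p = 0.0159) and 0.52 higher for the combination (exact p = 0.0238). Neither passed after adjustment over the 12 ratios tested, at 0.0952 each, and a lone ratio at the smallest exact p that 5 against 5 allow, 0.00794, would not have passed either.

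The exchangers SLC1A5 and SLC1A4 were each called in a single treatment. After hemin plus kynurenine SLC1A5 had 146, 112, 88, 90.3 and 84.4 CPM in Medium 2, against 85.5, 68.4, 73.3, 75.4 and 71.8 CPM in Medium 1. Wells H7 and A8 were the high ones, the ranges touched at their ends, and the difference of 0.47 (SE 0.15) had an edgeR adjusted p of 0.0202. Without well H7 it was 0.32 with an adjusted p of 0.156, and it also lost its call without C4 or A8, with a term for plate row and under total-count scaling. After kynurenine SLC1A4 had 5.38, 6.62, 5.59, 9.76 and 6.23 CPM in Medium 2, against 2.71, 2.15, 0.734, 1.43 and 1.79 CPM in Medium 1. These groups were separate but rested on 9 to 15 counts per library in Medium 2 and 1 to 6 in Medium 1. The difference was 1.83 (SE 0.43, 3.54-fold with a 95% interval of 1.96 to 6.40, edgeR adjusted p = 0.00336), and it kept its call under the alternatives that gave a value, 0.00269 to 0.0176 in adjusted p. In a fit to these 10 libraries alone it did not pass the filter on low counts. The log2 ratio of SLC1A4 to SLC1A5 after kynurenine was 1.07 higher in Medium 2 (exact two-sided permutation p = 0.00794, the smallest that 5 against 5 allow), with an adjusted p of 0.0952 over the 12 ratios.

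SLC7A11 had no call within a treatment, although its averaged difference passed. After kynurenine it had 151, 126, 137, 53.3 and 127 CPM in Medium 2, against 89.5, 102, 74.1, 80.7 and 83.6 CPM in Medium 1. Well A7 lay below every Medium 1 library and the other 4 lay above them all, and the difference was 0.47 (95% interval 0.06 to 0.88, edgeR adjusted p = 0.154). Without well A7 it was 0.67 with an adjusted p of 0.0242. SLC43A1 ranged from -1.30 after hemin to -0.21 in untreated spheroids, negative in all 6 treatments, with no adjusted p below 0.163.

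The exposures were next compared with untreated spheroids inside each medium, and none of the 70 comparisons of a member was called by edgeR, DESeq2 or limma-voom. The unadjusted edgeR p was below 0.05 in 6 of them, and the smallest adjusted p was 0.0989. Few genes of any kind were called in either direction in the main edgeR fit. In Medium 2 the share of all tested genes was 0.0266% for kynurenine, 0.0177% for kynurenic acid, 0.558% for the combination and 0 for butyrate and hemin. In Medium 1 it was 0.00885% for butyrate, 0.133% for hemin, 0.0354% for kynurenine, 0.0266% for the combination and 0 for kynurenic acid. These shares depended on the fit. For hemin in Medium 1 the main fit called 15 genes, limma-voom 8, DESeq2 568 and edgeR without wells B2 and A7 755. For the combination in Medium 2 the main fit called 63 genes, limma-voom 59 and DESeq2 131. Fold changes against the same untreated libraries share those libraries.

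The smallest adjusted p belonged to SLC38A1 after hemin in Medium 1. Its libraries had 188, 206, 266, 235 and 334 CPM after hemin, against 328, 275, 360.1, 340.2 and 322 CPM in untreated spheroids. Well G2 was within the untreated range and the other 4 were below it, and the difference of -0.40 had a 95% interval of -0.70 to -0.11. Without well G2 it was -0.53 with an edgeR adjusted p of 0.0193, and without wells B2 and A7 it was -0.39 with 0.0441. Wells B2 and A7 belong to neither of the groups compared. The fit without them called 755 genes in this comparison, against 15 in the main fit. In Medium 2 the same comparison gave 0.09 (95% interval -0.20 to 0.38), and the difference between these responses, 0.50 (95% interval 0.08 to 0.91), had an edgeR adjusted p of 0.294.

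SLC1A5 was 0.46 higher after the combination than in untreated spheroids of Medium 2 (95% interval 0.17 to 0.76, edgeR adjusted p = 0.127), and SLC7A1 was at -0.34 in the same comparison (95% interval -0.60 to -0.07, edgeR adjusted p = 0.216). After butyrate in Medium 1, SLC1A5 had 83.8, 107, 82.5, 85 and 112 CPM, against 71.7, 76, 84.4, 75.1 and 54.9 CPM in untreated spheroids. The ranges overlapped through well C1 of the untreated group, and the difference was 0.38 (95% interval 0.08 to 0.68, edgeR adjusted p = 0.515).

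SLC1A4 in Medium 1 showed both the highest and the lowest group mean of that gene. It had 5.45, 11.6, 8.06, 6.34 and 7.96 CPM after butyrate and 2.71, 2.15, 0.734, 1.43 and 1.79 CPM after kynurenine, against 3.9, 4.98, 4.28, 4.84 and 3.59 CPM in untreated spheroids. Neither exposed group overlapped the untreated one, as held for 0.593% of all genes in the upward direction after butyrate and for 0.469% in the downward direction after kynurenine. The differences were 0.85 (95% interval 0.15 to 1.56, edgeR adjusted p = 0.533) for butyrate and -1.21 (95% interval -2.11 to -0.31, edgeR adjusted p = 1) for kynurenine. The widest intervals were those of SLC43A1, whose 10 differences lay between -0.54 and 1.04.

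**Figure D3:**
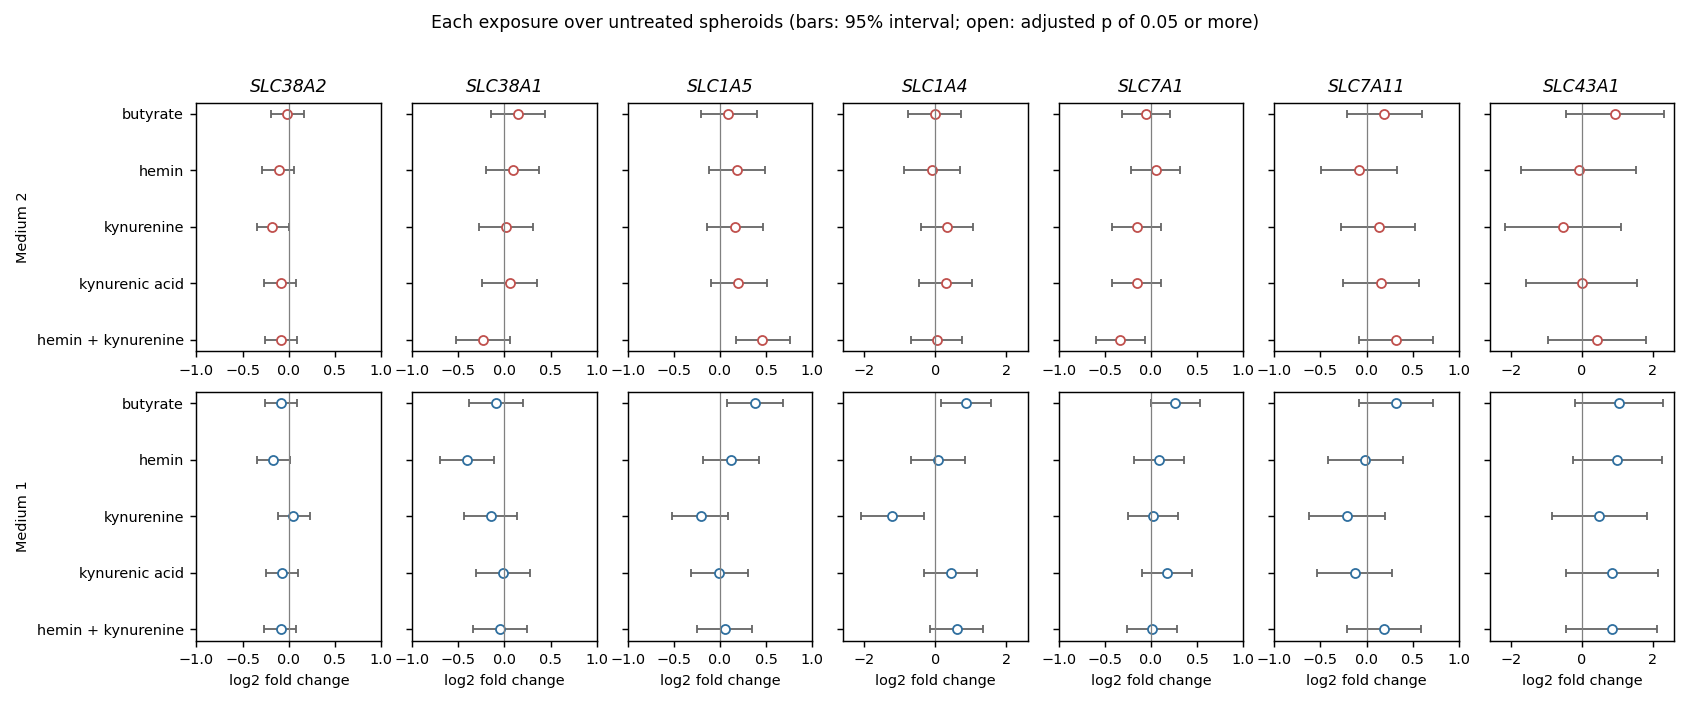
Log2 fold change of each exposure over untreated spheroids for the 7 transporters, in Medium 2 (upper panels) and Medium 1 (lower panels), with 95% intervals from the edgeR model. All 70 symbols are open, since no adjusted p was below 0.05. The intervals of SLC38A2 are the narrowest, and SLC1A4 and SLC43A1 have a wider axis.

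For the abundant members the 95% intervals give a range for each response taken singly. They were not adjusted over the 10 comparisons of a gene, and exposure cannot be told apart from plate position in them. All 10 differences of SLC38A2 from untreated spheroids lay between -0.18 and 0.05, and none of their 95% intervals reached beyond -0.35 or 0.23. SLC7A11 differed by -0.21 to 0.32, with intervals reaching -0.62 and 0.72. Whether a response depended on the medium was tested as a difference of differences, and none of 35 such tests was called by edgeR, DESeq2 or limma-voom, with 2 unadjusted edgeR p-values below 0.05. Of all genes, the main edgeR fit called 0.0177% for kynurenine, 0.0266% for the combination and 0 for the other exposures. The other unadjusted one was SLC1A4 with kynurenine, at 1.53 (95% interval 0.38 to 2.69, edgeR adjusted p = 1).

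Exposures were also set against each other at matched times. Kynurenic acid is made from kynurenine in the body by transamination and ring closure, and both were given at 1 µM. No member passed the test between them in either medium, where 0.00885% of all genes were called in Medium 2 and 0.0354% in Medium 1. SLC1A4 in Medium 1 had 4.48, 8.28, 9.66, 4.56 and 2.32 CPM after kynurenic acid, against 2.71, 2.15, 0.734, 1.43 and 1.79 CPM after kynurenine. Only well A4 fell inside the kynurenine range, and the difference was 1.65 (95% interval 0.79 to 2.51, edgeR adjusted p = 0.393), whereas in Medium 2 it was -0.04 (95% interval -0.75 to 0.67). The intervals for SLC38A2 between kynurenic acid and kynurenine were -0.09 to 0.26 in Medium 2 and -0.30 to 0.05 in Medium 1.

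Hemin plus kynurenine was compared with each component. In Medium 2, SLC7A1 had 63.7, 86.2, 98.2, 84.5 and 77.3 CPM after the combination, against 113, 119, 103, 102 and 98 CPM after hemin. The ranges met only at well B8, and the difference of -0.38 (95% interval -0.65 to -0.12) had an edgeR adjusted p of 0.126, the smallest of the 42 comparisons between exposures. Against kynurenine in Medium 1, SLC1A4 was at 1.81 (95% interval 0.96 to 2.65, edgeR adjusted p = 0.257) with separate libraries, and SLC1A5 at 0.26 (95% interval -0.04 to 0.57) with separate libraries too, as held for 0.381% of all genes in that direction. None of the 42 was called by edgeR, DESeq2 or limma-voom, and 6 had an unadjusted edgeR p below 0.05. Of all genes, the combination against hemin called 0.434% in Medium 2 and 0.0177% in Medium 1, and the combination against kynurenine 0.168% in Medium 2 and 0.0177% in Medium 1.

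The members did not vary as a unit from library to library. After removal of the group means, SLC38A1 and SLC7A1 varied together over the 60 libraries (Pearson r = 0.70), and r was 0.58 over the 58 libraries without B2 and A7. SLC38A1 and SLC1A5 varied in opposite directions, with r = -0.55 (-0.56 without those libraries). Well B2 was low for SLC38A1 (166 CPM) and SLC7A1 (51.5 CPM) and high for SLC1A5 (112 CPM). Well H7 had the same profile, at 215, 63.7 and 146 CPM. SLC38A2 and SLC7A1, the members with the clearest differences between media, had r = -0.20 within groups. These coefficients describe values that share library, depth and scaling, and carry no test.

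**Figure D4:**
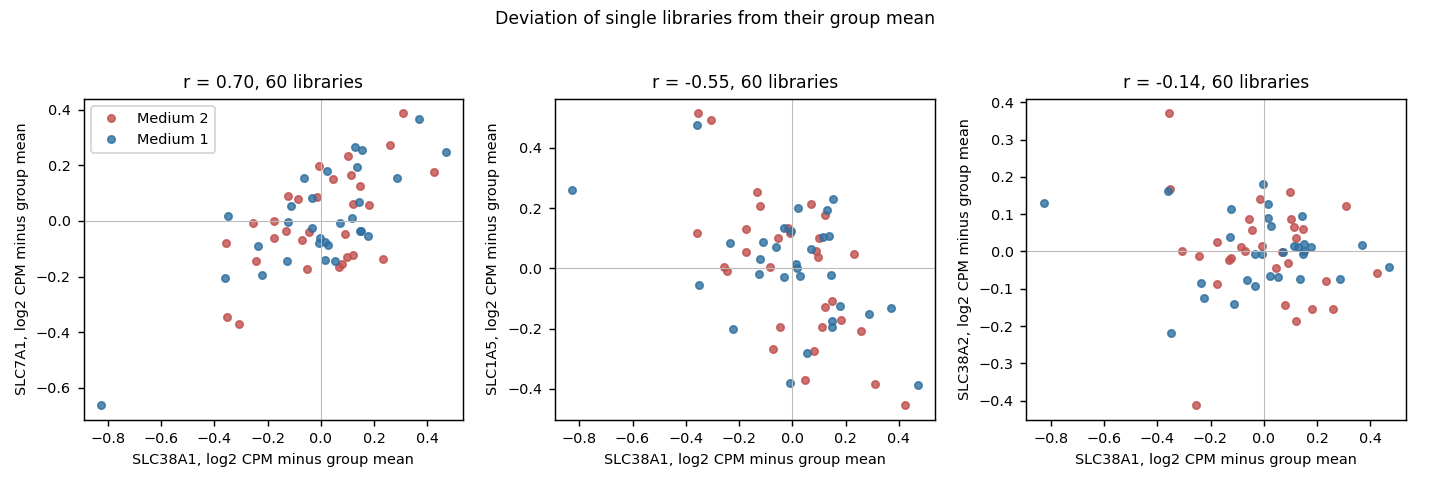
Deviation of each of the 60 libraries from its group mean, in log2 CPM, for SLC38A1 against SLC7A1, SLC1A5 and SLC38A2, coloured by medium. SLC7A1 goes up with SLC38A1 (r = 0.70), SLC1A5 goes down (r = -0.55) and SLC38A2 has little relation to it (r = -0.14). The point at the far left is well B2.

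The genes whose log2 CPM followed each member most closely over the 60 libraries, out of 11291 others, differed from member to member. For SLC7A11 they were PSAT1, an enzyme of serine synthesis (r = 0.80, and 0.79 within groups), GCLM, a subunit of the ligase that starts glutathione synthesis (0.66), and CYCS (0.64). SLC38A2 was most like RHOA, B2M and RPS29 (0.88 each), SLC38A1 most like PRKACB (0.87), TCEA1 (0.87) and PAPOLA (0.85), and SLC1A5 most like SPAG7 (0.76), EEF1D (0.73) and NDUFA5 (0.72). SLC7A1 was closest to GOSR1 (0.74), ZNF322 (0.73) and SQSTM1 (0.73). The rare members had looser neighbours, TRIM16L (0.48), CARS (0.48) and APITD1-CORT (0.47) for SLC1A4 and FADS3 (0.54), FAM120A (0.53) and REEP3 (0.53) for SLC43A1. Differences between groups enter these values. Within groups r was 0.76 to 0.77 for the neighbours of SLC38A2, 0.84 to 0.87 for SLC38A1 and 0.63 to 0.77 for SLC1A5. It was 0.59 to 0.64 for SLC7A1, 0.64 to 0.79 for SLC7A11, 0.33 to 0.42 for SLC1A4 and 0.38 to 0.43 for SLC43A1.

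Of 12 listed regulators known to act on these genes, 11 were tested, and 9 were higher in Medium 2, where 22.8% of all genes were, with a median of 0.34 against 0 for all genes. ATF4 and BACH1 were not called in that average. Within treatments 3 to 6 of the 11 were higher, and ATF4 was lower after butyrate and after hemin. DDIT3 (CHOP), a stress-induced C/EBP family factor, averaged 65 CPM in Medium 2 and 17.6 CPM in Medium 1, a difference of 1.88 (edgeR adjusted p = 1.2e-27). ATF3 differed by 1.20 and CEBPB by 0.60, and these 3 were called in all 6 treatments. The transcript of ATF4 itself, which is controlled mainly in translation, had group means of 312 to 464 CPM in Medium 2 and 334 to 514 CPM in Medium 1. Its averaged difference was -0.10 (edgeR adjusted p = 0.276), and under total-count scaling, which moved all genes by -0.12, it was -0.21 (0.0121). After butyrate it was -0.72 (edgeR adjusted p = 0.00505, and 0.0557 without well B2) and after hemin -0.53 (0.0245, and above the threshold without C2, D2, F2 or E6). Within groups ATF4 correlated with SLC1A5 at r = 0.64, SLC7A1 at -0.60 and SLC38A1 at -0.83. With the other members r lay nearer to 0, at 0.22 for SLC1A4, 0.12 for SLC38A2, -0.10 for SLC7A11 and 0.12 for SLC43A1. Over all members r within groups was -0.26 to 0.15 for DDIT3, -0.13 to 0.22 for CEBPB and -0.38 to 0.45 for ATF3. For NFE2L2 it ran from -0.47 with SLC1A5 to 0.62 with SLC38A1. It was 0.59 with SLC7A1 and 0.09 with SLC7A11, a known target. The coefficients with these regulators were not computed without well B2. They describe values that share library, depth and scaling, and carry no test.

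ASNS, a classical ATF4 target that makes asparagine, did not pass in the average between media, at 0.08 (edgeR adjusted p = 0.525), but its treatments lay on both sides of 0. After butyrate it had 115, 124, 126, 74.3 and 136 CPM in Medium 2, against 92.2, 374, 165, 154 and 174 CPM in Medium 1. Well G1 of Medium 1 stood highest, the ranges overlapped, and the difference of -0.73 was called (edgeR adjusted p = 0.0339). Without G1 it was -0.34 (0.397), and without D5, E5 or G5 it also missed the threshold. After kynurenine and after the combination the difference was 0.50 each (0.204 and 0.133). Within Medium 1, ASNS was the one gene called after butyrate against untreated spheroids, at 1.24 (edgeR adjusted p = 0.025). That difference was 0.85 without G1 (0.913), and it also missed the threshold without B1, C1, D1 or E1 of the untreated wells. No gene was called in this comparison by limma-voom, with a term for plate row or in the fit to only the groups compared. ASNS kept its call under total-count scaling (0.0337) and without wells B2 and A7 (0.0284).

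Other amino acid transporters were called in both directions between media, where 46.1% of all tested genes were called. Of 34 further plasma membrane carriers, 15 were tested, with 5 higher, 3 lower and 7 not called and a median of -0.01, so that 8 of 15 is near the share over all genes. The LAT1 subunits SLC3A2, which is also the partner of SLC7A11, and SLC7A5 were higher by 0.36 (edgeR adjusted p = 1.85e-05) and 0.26 (0.000744), and SLC43A2 (LAT4), a relative of SLC43A1, was higher by 0.45 (0.00275). SLC38A10, of the same family as SLC38A2, was lower by the test at -0.51 (2.06e-07), as were SLC7A6 at -0.36 (0.000278) and the glutamate transporter SLC1A1 at -0.51 (0.0099). Of 10 lysosomal carriers, 6 were tested and 1 was lower, against 23.3% of all genes, the glutamine and asparagine exporter SLC38A7 at -0.48 (0.00956). Of 10 mitochondrial carriers, 8 were tested and 3 called, with the glycine carrier SLC25A38 at 0.33 and SLC25A44, a carrier of branched-chain amino acids, at 0.30 higher, and the basic amino acid carrier SLC25A29 lower at -0.47.

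Among 20 enzymes that use the transported amino acids, 18 were tested, and 5 were higher, 1 lower and 12 not called between media, with a median of 0.09. The 6 called of 18 compare with 46.1% of all tested genes. CHAC1, which degrades glutathione, averaged 30.1 CPM in Medium 2 and 7.08 CPM in Medium 1, a difference of 2.18 (edgeR adjusted p = 8.38e-21). ODC1, which converts ornithine to putrescine, was higher by 0.42 (3.62e-06) and PSAT1 by 0.37 (1.37e-05). CHAC1 was called in all 6 treatments.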

How the data were processed

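RNA from HCT116 spheroids was measured by 3'-end sequencing (48 ng RNA, 18 PCR cycles, unique molecular identifiers, per the labels' protocols). The authors deposited 1 table of estimated counts, with a row for each gene and a column for each of 60 libraries. The tools listed are Salmon 1.5.2, STAR, cutadapt 3.4, UMI-tools 1.1.2 and FastQC 0.11.9 on GRCh38, per the submitters' processing notes. Settings, gene annotation and the treatment of reads with several matches: not given in the sources used here. Of all values, zeros included, 10.1% had a fraction, and every value was rounded to a whole number. Groups came from the sample titles. Columns are named by group and plate well, so libraries are named by well. The titles call the 5 samples of a group biological replicates. Nothing used here says that they came from separate cultures, and the p-values then reflect only how these samples spread, which may be technical. No pair of libraries agreed within sampling noise (lowest chi-square per degree of freedom within groups 2.27). A characteristic that reads the same for all 60 samples was not used.

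Genes were filtered with filterByExpr (minimum count 10, minimum total 15), which kept 11298 genes with 99.62% of counts, and TMM set the scaling. A single quasi-likelihood model in edgeR 4.0.16 (R 4.3.3) with 12 group means left 48 residual degrees of freedom and a common dispersion of 0.0316. It gave 28 contrasts, adjusted by Benjamini-Hochberg over all tested genes within each contrast. Log2 CPM used a prior count of 2. Ratios between paralogues used log2(CPM + 1) and two-sided exact permutation tests over 252 regroupings. Alternatives were RLE or total-count scaling, no filter, DESeq2 1.42.0, limma-voom 3.58.1, only the groups compared, a plate row term, omission of wells B2 and A7, and omission of each library. The procedure was checked on simulated data of 11180 genes, of which 100 were changed 1.25-fold and 100 were changed 1.5-fold. There edgeR recovered 81% of 1.25-fold and 100% of 1.5-fold changes in the averaged contrast between media. In the single contrast between media of untreated spheroids it recovered 5% and 36%, so most changes of these sizes would be missed there. False calls were 6 of 187 in the averaged contrast and 1 of 42 in the single contrast. Far fewer genes were changed there than the 46.1% called between media here, so these rates need not hold for these data. They were not split by level, so they do not describe the rare members SLC1A4 and SLC43A1. The members and gene lists were chosen with earlier results of these data known. Named genes were all 7 members, up to 3 called genes per list and direction with the smallest p, and the 3 genes most correlated with each member. ATF4 and ASNS were added after their values were seen. Promoter sequences and coordinates are from RefSeq, GRCh38.p14. Counting of reads by strand is not stated. On the opposite strand SLC7A11 is overlapped by SLC7A11-AS1, with 1 count in all. Some results that these rules cover are not reported here.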

Additional observations from a re-analysis of the deposited data

Results flagged for a closer look

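In 6 of the 84 combinations of a member and a group, 1 library stood apart from the other 4 by more than Dixon's 95% critical value. Chance flags about 1 group in 20. In kynurenine spheroids of Medium 2, well A7 held the highest SLC1A4 level, 9.76 CPM with the next at 6.62, and the lowest SLC7A11 level, 53.3 CPM with the next at 126. Well B7 of the same group had the highest SLC7A1 level, 121 CPM with the next at 91.7. In kynurenic acid spheroids of Medium 2, well D7 had the lowest SLC7A11 level, 102 CPM with the next at 124. In untreated spheroids of Medium 1, well C1 had the highest levels of SLC7A1, 83.8 CPM with the next at 69.6, and of SLC43A1, 6.72 CPM with the next at 1.95.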

How the results depend on the processing

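Over 208 results on single genes or ratios and 4902 alternative fits, 4849 stayed on the same side of the threshold, 15 lost a call, 38 gained one and none reversed a call. The sign changed without any call in 197. Scaling by total counts reduced the averaged calls between media to 3, against 5, and those within treatments to 4, against 10. The other alternatives gave 5 to 6 averaged calls and 9 to 12 within treatments. Against untreated spheroids, 1 member was called without wells B2 and A7 (SLC38A1 after hemin in Medium 1) and none under the other settings that kept all libraries. The fit without those wells called 755 genes in that comparison, against 15 in the main fit. Leaving out each library in turn gave 5 to 6 averaged calls, 9 to 11 within treatments, 0 to 1 against untreated spheroids, 0 to 0 for differences of responses, 0 to 0 between exposures and 0 to 2 paralogue ratios. The 2 ratios called were reached without well B5 (SLC38A2 over SLC38A1 in untreated spheroids) or B8 (the same ratio after the combination), each with SLC1A4 over SLC1A5 after kynurenine. SLC38A1 gained an averaged call in 22 of the 60 omissions and with limma-voom (adjusted p = 0.0453). After kynurenine, DESeq2 added SLC1A5 and SLC7A1, and the fit without B2 and A7 added SLC7A1 and SLC7A11. The cause was not tested. The fit to only the groups compared gives no separate value for the averaged contrast. No paired analysis was possible because the columns of the table carry no replicate number. SLC1A4 and SLC43A1 had the fewest counts, with medians of 10 and 5, and the widest spread beyond counting, with biological coefficients of variation of 24.4% and 51.8% against 9.82% to 21.3% for the other members, so smaller differences were harder to detect in them. The alternatives given for ASNS and ATF4 were chosen after seeing the data.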
